A study of Mus musculus with 4 samples.

Results

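After intranasal papain, lung immune cells of Ift20 f/f CD4 cre mice (KO) were compared with those of Ift20 f/f mice (WT), with 1 single-cell RNA library on each side. Both libraries came from C57BL/6 mice that carry floxed Ift20 alleles, and only the KO mice also carry CD4-cre, which is active in developing T cells, so that CD4 and CD8 T cells descend from cells with Cre and B cells, NK cells, type 2 innate lymphoid cells (ILC2) and myeloid cells do not. Mice received 25 µg of papain, a cysteine protease used as an inhaled allergen, on 3 consecutive days, were challenged on day 14 and were examined on day 15, when 7-AAD-negative CD45.2+ lung cells were sorted. Filtering kept barcodes in which over 200 genes were seen and mitochondrial transcripts made up less than 15%, and removal of doublets then left 7483 Papain WT and 5442 Papain KO cells, 12925 of the 25982 cells kept in the series. The libraries of WT and KO mice given DPBS, a buffered saline, are set beside them where they show the level at rest. How many mice went into a library is not stated, so every interval below is a 95% interval for counting error only, and the variation from mouse to mouse is unknown.

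IFT20 is a subunit of the intraflagellar transport machinery that carries cargo to the cilium, and in T cells, which lack a cilium, it has been linked to vesicle traffic toward the immune synapse. Papain provokes type 2 airway inflammation, in which epithelial alarmins act on ILC2 and on type 2 helper T cells, and the interleukins IL-4, IL-5 and IL-13 made by these cells act in turn on macrophages, eosinophils and epithelium. Macrophages exposed to IL-4 or IL-13 enter the state called alternative activation, of which Chil3, Arg1, Retnla and the chemokine genes Ccl17 and Ccl24 are markers.

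The files held 8444 barcodes and 74536080 unique molecular identifiers (UMIs) for Papain WT and 5863 barcodes and 53854420 UMIs for Papain KO. The cells kept had a median of 6217 and 6689 UMIs, and the DPBS libraries had 5858 and 6542.5. The papain libraries shared 13 cell barcodes, and the other pairs of libraries shared 6 to 14. Cells were clustered together and named from marker genes, and the names carry the ending -like because they were rebuilt here. In each of the compared named classes, every marker was detected in at least 10% of cells in both papain libraries. One T cell cluster of mixed type was led by Ctla4 and Icos and is called the Ctla4-Icos T cluster. Levels are in CPM, which is the number of UMIs of a gene in every 1000000 UMIs summed over a class in a library, and the log2 ratio is always that of KO over WT.

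The targeted gene comes first. Ift20 (ENSMUSG00000001105) spans bases 78536361 to 78541737 of chromosome 11 in GRCm38, is read from the plus strand, and has 6 exons in its transcript Ift20-203. Summed over all T cell clusters, Ift20 had 1120 UMIs in Papain WT against 304 in Papain KO, which is 58.5 CPM against 18.9 CPM and a log2 ratio of -1.63 (-1.82 to -1.45). The value was -1.51 in the DPBS libraries, so the labels of all 4 libraries matched the T cell level of the gene. A 3′ library counts transcript ends, so the UMIs left in KO T cells are no measure of how complete the deletion was.

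The loss of Ift20 followed the lineages with Cre. In CD4 T-like cells 48.0 CPM in Papain WT stood against 17.2 CPM in Papain KO, a log2 ratio of -1.48 (-1.84 to -1.13). CD8 T-like cells gave -1.55 (-1.88 to -1.22). The Ctla4-Icos T cluster, which had the highest WT level among these 3 classes at 85.9 CPM, held 17 UMIs or 11.7 CPM in Papain KO, a log2 ratio of -2.88 (-3.68 to -2.17). This ratio is smaller, -1.78, when the libraries are clustered without alignment. In gamma-delta T-like cells, with 19 and 21 UMIs, the ratio was -0.39 (-1.36 to 0.58). Of the 9 compared classes without Cre, B-like cells had 38.9 and 40.5 CPM (log2 ratio 0.06, -0.14 to 0.25) and NK-like cells had 121 and 103 CPM (-0.23, -0.85 to 0.40). ILC2-like, monocyte-like, interstitial macrophage-like, neutrophil-like and type 2 conventional dendritic cell (cDC2)-like cells had ratios from -0.52 to 0.28, each with an interval that held 0. Alveolar macrophage-like cells, with 1055 and 638 UMIs, gave -0.15 (-0.30 to -0.01).

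**Figure D1:**
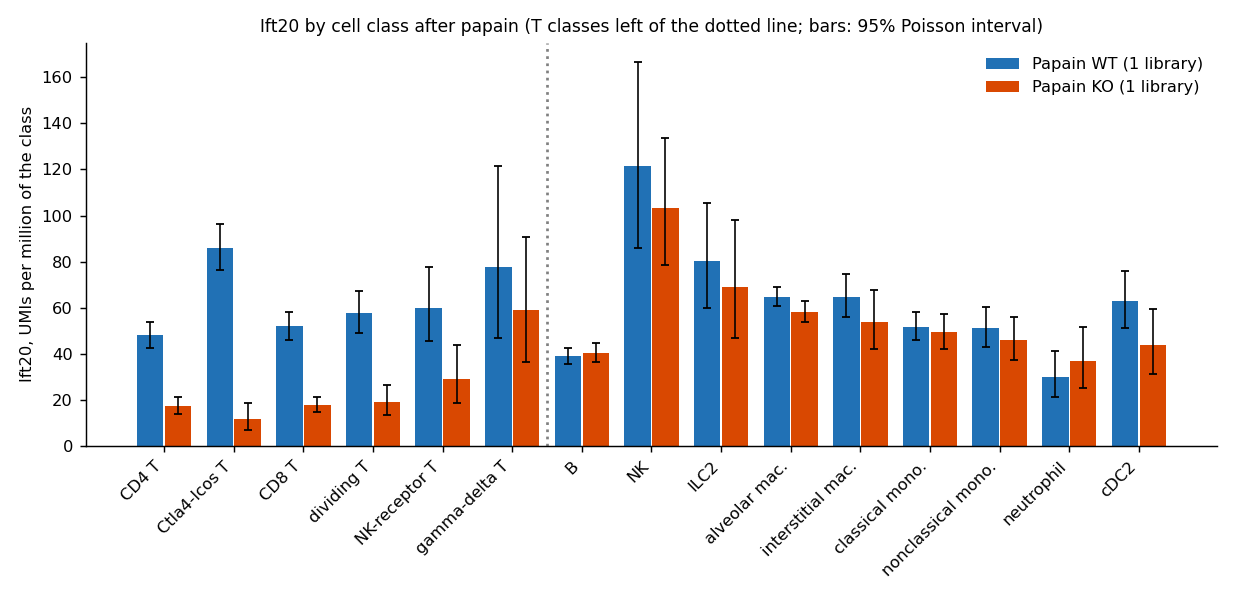
Ift20 in each cell class of the papain libraries, in CPM of the class, for WT (blue) and KO (orange), with 1 library a side and 95% Poisson intervals. In the T cell classes left of the dotted line KO lies below WT with intervals apart in all but gamma-delta T-like cells, and in the 9 compared classes without Cre the intervals of WT and KO overlap.

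The make-up of the sorted cells differed in T and myeloid classes. CD4 T-like cells made up 13.4% of Papain WT and 14.5% of Papain KO (log2 ratio 0.11, -0.03 to 0.24), and cells gated on CD4 T marker transcripts gave -0.30. The Ctla4-Icos T cluster had a smaller share in KO, with 435 cells or 5.81% in WT and 177 cells or 3.25% in KO (-0.84, -1.10 to -0.58). CD8 T-like cells went the other way, from 8.83% to 13.6% (0.62, 0.47 to 0.78). At rest the same ratios were -0.19 for the Ctla4-Icos T cluster and -0.22 for CD8 T-like cells. Since shares add up to the whole library, a larger share of one class lowers those of the others.

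Among cells without Cre, both macrophage classes and 2 of 3 dendritic cell classes had smaller shares in KO. Interstitial macrophage-like cells made up 3.84% of Papain WT and 1.49% of Papain KO (log2 ratio -1.37, -1.74 to -1.01), and alveolar macrophage-like cells 12.3% and 9.94% (-0.31, -0.47 to -0.15). Without alignment of the libraries the alveolar class had a ratio of 0.07 and the interstitial class, then 549 and 118 cells, -1.76. The cDC2-like class held 99 and 44 cells (-0.71, -1.26 to -0.18), and mature dendritic cell (DC)-like cells, which have left the tissue program for migration, 50 and 10 cells (-1.86, -3.01 to -0.87). Type 1 conventional dendritic cell-like cells, with 53 and 38 cells, gave -0.02 (-0.66 to 0.61). NK-like cells were more frequent in KO, with 58 and 91 cells (1.11, 0.62 to 1.61), and B-like cells slightly so, at 28.3% and 32.2% (0.19, 0.09 to 0.28). ILC2-like cells, with 90 and 78 cells (0.25, -0.20 to 0.71), and neutrophil-like cells, with 355 and 232 cells (-0.15, -0.40 to 0.09), had intervals that held 0.

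**Figure D2:**
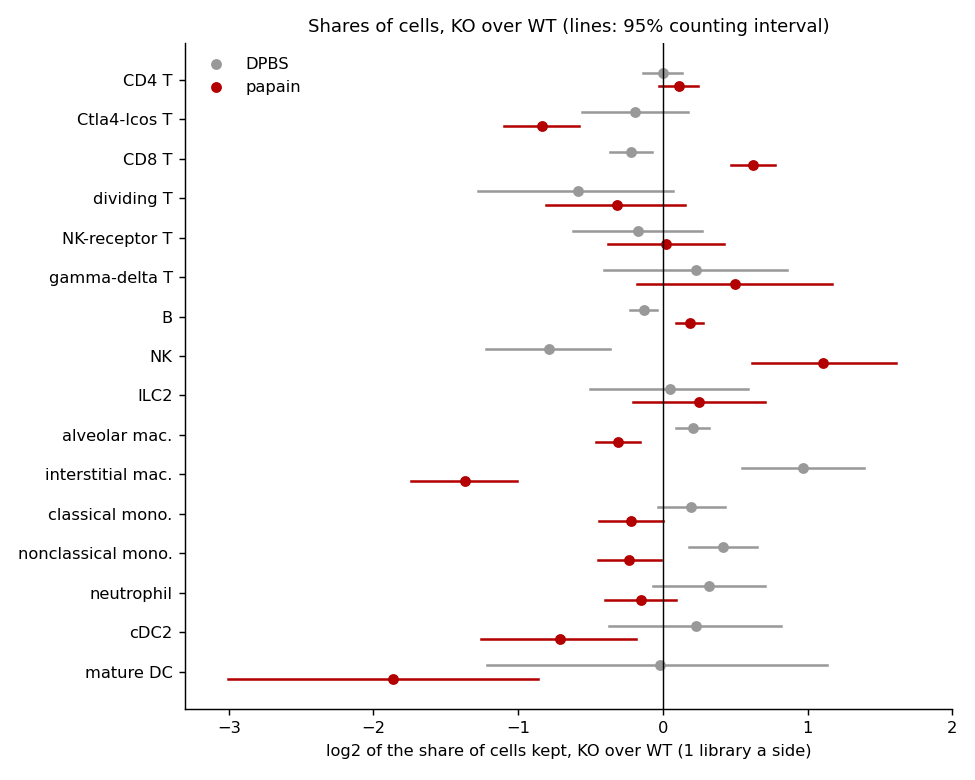
Log2 ratio of the share of cells kept, KO over WT, for each class after papain (red) and after DPBS (grey), with 95% counting intervals and 1 library a side. After papain the interstitial macrophage-like and mature DC-like classes lie farthest to the left and NK-like cells farthest to the right. For interstitial macrophage-like and NK-like cells the DPBS value lies on the opposite side of 0.

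A gene was counted as past 2-fold when its log2 ratio reached 1 in either direction, among genes with at least 100 UMIs over both papain libraries in that class. The share past 2-fold was 0.375% in CD4 T-like cells (26 of 6934 genes, 5 higher and 21 lower in KO), 0.467% in CD8 T-like cells (33 of 7063) and 2.64% in the Ctla4-Icos T cluster (143 of 5426, of which 116 were lower). Classes without Cre gave shares from 0.188% to 3.84%. These were 0.597% in B-like cells (52 of 8705), 0.641% in NK-like cells (8 of 1248), 3.13% in ILC2-like cells (42 of 1343), 1.02% in alveolar macrophage-like cells (97 of 9467, of which 78 were lower) and 3.84% in interstitial macrophage-like cells (197 of 5127). Classical monocyte-like cells gave 1.2% (81 of 6725), nonclassical monocyte-like cells 0.188% (10 of 5320), neutrophil-like cells 1.24% (30 of 2420) and cDC2-like cells 2.87% (94 of 3272). Smaller classes have wider counting error, so these shares do not rank the classes. Between the DPBS libraries the shares were 0.61% in CD4 T-like cells, 0.615% in CD8 T-like cells and 0.815% in the Ctla4-Icos T cluster. B-like cells gave 0.343% there, NK-like 1.57% and ILC2-like 0.865%. Alveolar and interstitial macrophage-like cells gave 0.414% and 2.53%. Classical and nonclassical monocyte-like cells gave 1.33% and 0.707%, neutrophil-like cells 0.781% and cDC2-like cells 3.61%.

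T cells of Papain KO carried little of the type 2 cytokine message that T cells of Papain WT carried. Summed over all T cell clusters, 448 Il13 UMIs came from 32 of 2440 Papain WT cells and 10 UMIs from 4 of 1936 Papain KO cells, or 23.4 against 0.621 CPM (log2 ratio -5.24, -6.31 to -4.34). In DPBS WT 1 cell held all 17 UMIs, and DPBS KO held none. Il4 had 158 UMIs in WT and 14 in KO (-3.25, -4.15 to -2.46). For Il5, which supports eosinophils, 104 UMIs in 18 WT cells stood against 74 UMIs in KO, of which 72 came from 1 cell (-0.24, -0.69 to 0.20). The regulatory cytokine gene Il10 had 223 UMIs in 68 WT cells and 35 UMIs in 15 KO cells (-2.42, -2.98 to -1.90). Cytokines of other helper programs varied. Ifng, the type 1 cytokine, had 805 and 713 UMIs (0.07, -0.07 to 0.22), Il22 had 116 and 101 (0.05, -0.35 to 0.45), and Il17a, the type 17 cytokine, had 578 and 310 (-0.65, -0.85 to -0.45). Il17f, of the same program, had 257 and 120 (-0.85, -1.17 to -0.53), and Il2, a T cell growth factor, 169 and 101 (-0.49, -0.86 to -0.13).

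Transcripts of the type 2 regulator and the alarmin receptor were lower in KO as well. Gata3, the transcription factor that directs type 2 differentiation, had 163.7 CPM over all T cell clusters of Papain WT against 73.9 CPM in those of Papain KO (log2 ratio -1.15, -1.24 to -1.05), beside 66.1 and 59.3 CPM in DPBS WT and KO. Il1rl1, which encodes the receptor for the alarmin IL-33, had 43.4 and 6.83 CPM (-2.67, -2.97 to -2.38), and Foxp3, the factor that defines regulatory T cells, had 40.8 and 16.1 CPM (-1.34, -1.55 to -1.14). In DPBS WT and KO these were 2.10 and 1.63 CPM for Il1rl1 and 10.8 and 11.5 CPM for Foxp3. For each of the 3 genes, Papain WT lay above the other 3 libraries.

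The same order was seen in the share of cells with a UMI. CD4 T-like cells and cells of the Ctla4-Icos T cluster were pooled, and each cell was thinned to 2000 UMIs, which left out shallower cells, 3 of Papain WT and 0 of Papain KO, and 3 and 2 of the WT and KO libraries at rest. Gata3 was then found in 21.2% of Papain WT and 12.2% of Papain KO cells (unthinned 38.4% and 29.5%), beside 10.9% and 11.5% at rest. Foxp3 was found in 6.06% and 3.01% (unthinned 9.31% and 5.60%), beside 2.08% and 2.28% at rest, and Il1rl1 in 5.92% and 0.726% (unthinned 9.80% and 1.97%), beside 0.40% and 0.455%. In B-like cells of Papain WT and KO, which should lack these transcripts, the thinned shares were 0.145% and 0.0574% for Gata3, 0.0482% and 0.115% for Foxp3, and 0.145% and 0.0574% for Il1rl1, Cxcr6 gave 0.0964% and 0.0574% and Itgae 0.145% and 0.0574%, at median depths of 4386 and 4785 UMIs beside 5981 and 6270 in the T cells. Single genes outside the type 2 and regulatory programs were also found in fewer KO cells. Cd44, the activation marker, was found in 16.0% of Papain WT and 8.71% of Papain KO cells (unthinned 33.2% and 21.4%), Cxcr6, a receptor of tissue-resident cells, in 6.82% and 2.80% (12.7% and 7.05%), and Itgae, the integrin CD103, in 3.83% and 1.45% (7.57% and 3.22%).

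**Figure D3:**
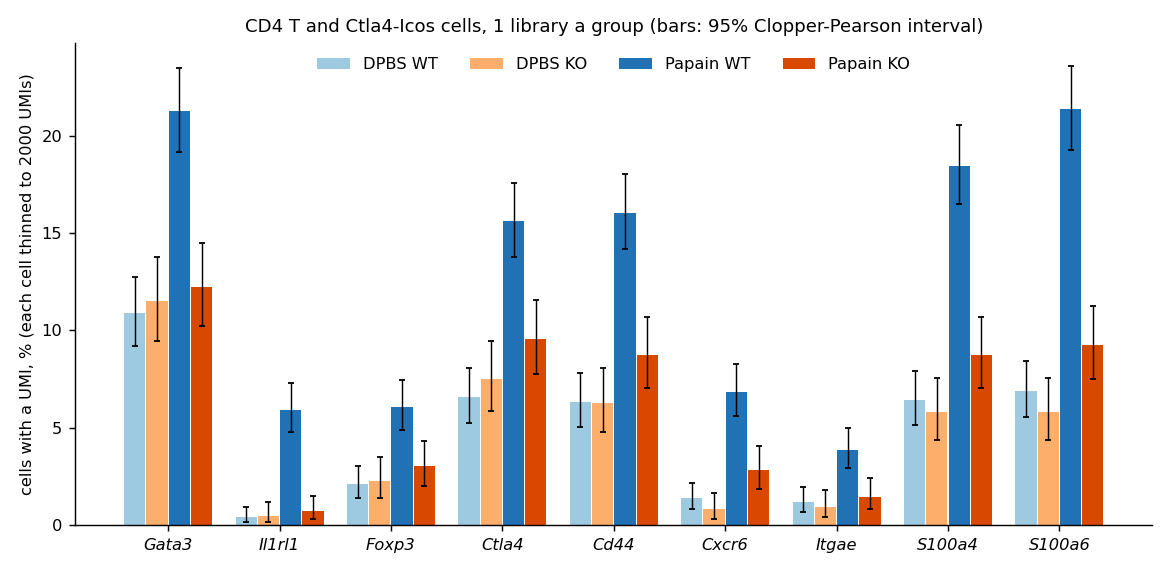
Percent of CD4 T-like and Ctla4-Icos T cluster cells with at least 1 UMI of each gene after thinning every cell to 2000 UMIs, in the 4 libraries, with 95% Clopper-Pearson intervals. For all 9 genes Papain WT (dark blue) is the highest bar, and the Papain KO bar (dark orange) lies below it with intervals apart.

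Within the Ctla4-Icos T cluster, the type 2 and regulatory programs were both lower in KO. Of 16 genes on the type 2 helper list, 12 were measured with at least 20 UMIs, and all 12 had a lower level in KO, with a median log2 ratio of -1.57 (DPBS 0.04). Of the 7 with 100 UMIs or more, 5 were past 2-fold lower, beside the 2.64% of all genes of the cluster, whose median ratio was -0.08. Gata3 had 473 CPM in WT and 221 CPM in KO (-1.10, -1.27 to -0.92), and Il1rl1 183 and 37.8 CPM (-2.28, -2.70 to -1.88). Il13 had 245 UMIs in 20 WT cells and 6 UMIs in 2 KO cells (-4.12, -5.58 to -2.97). Il4 had 116 UMIs in WT and none in KO, where 3 UMIs would be the floor, so it was at least 16.4-fold lower. Il5, with 66 UMIs in 9 WT cells and none in KO, was at least 9.35-fold lower. Pparg, a nuclear receptor used by type 2 helper cells, had 85 UMIs in 50 cells and 3 UMIs in 3 cells (-3.59, -5.90 to -1.99), and Il17rb, a subunit of the receptor for the alarmin IL-25, had 68 and 5 UMIs (-2.53, -4.20 to -1.24).

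The regulatory T list of 15 genes also lay lower throughout, with a median of -0.76 (DPBS -0.03) and 5 of the 15 genes past 2-fold, again beside 2.64% of all genes of the cluster. Il2ra, the high-affinity IL-2 receptor chain, had 160 and 59.1 CPM (log2 ratio -1.44, -1.78 to -1.11). Tnfrsf4, the costimulatory receptor OX40, had 805 and 351 CPM (-1.20, -1.34 to -1.06), and Areg, a growth factor of tissue repair, 333 and 151 CPM (-1.14, -1.35 to -0.93). Foxp3 itself had 145 and 92.8 CPM (-0.65, -0.93 to -0.37). This last direction depends on how cells were assigned, since Foxp3 in the cluster found without alignment had a ratio of 1.13, whereas Gata3, Il13 and Il1rl1 there had -1.77, -4.70 and -4.89. Over CD4 T-like and Ctla4-Icos cells summed, the regulatory list had a median of -1.28.

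Activation genes were lower and naive-cell genes higher in the KO cells of this cluster. The 20 T activation genes had a median ratio of -0.54, with 18 lower and 4 of 19 past 2-fold lower, beside the same 2.64% of all genes. Among them Pdcd1, the inhibitory receptor PD-1, had 149 and 47.4 CPM (-1.65, -2.04 to -1.29). The naive and quiescence list had a median of 0.40. Ccr7, a chemokine receptor for entry into lymph nodes, had 261 CPM in WT and 546 CPM in KO (1.06, 0.92 to 1.20), and Klf2, a factor of quiescent cells, 823 and 1621 CPM (0.98, 0.90 to 1.06). The DPBS levels in WT were 541 CPM for Ccr7 and 1240 CPM for Klf2, and for both genes Papain WT was the lowest of the 4 libraries.

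Other genes of the cluster with the largest differences included Igfbp7, a secreted binding protein, with 228 UMIs in 38 WT cells and 7 UMIs in 2 KO cells (log2 ratio -3.79, -5.12 to -2.72). Hilpda, a lipid droplet gene, had 299.9 and 77.0 CPM (-1.96), Rbpj, the DNA-binding partner of Notch, 154 and 38.5 CPM (-2.00), and Tnfsf11, which encodes RANKL, 178 and 46.0 CPM (-1.95). Cd8a had 22.8 and 90.0 CPM (1.98, 1.57 to 2.41) and Cd8b1 94.9 and 261 CPM (1.46, 1.24 to 1.68). Cells with a Cd8b1 UMI were 54 of 435 in WT and 33 of 177 in KO, so the cluster held a different mix of cells on the 2 sides. The part of this mix in the differences above was not tested. Genes of the type 17 list had a median of 0.13, with 8 of 13 higher. Il17a had 59.3 and 135 CPM in the cluster (1.19, 0.90 to 1.48), although 73 of its 197 KO UMIs came from 1 cell.

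**Figure D4:**
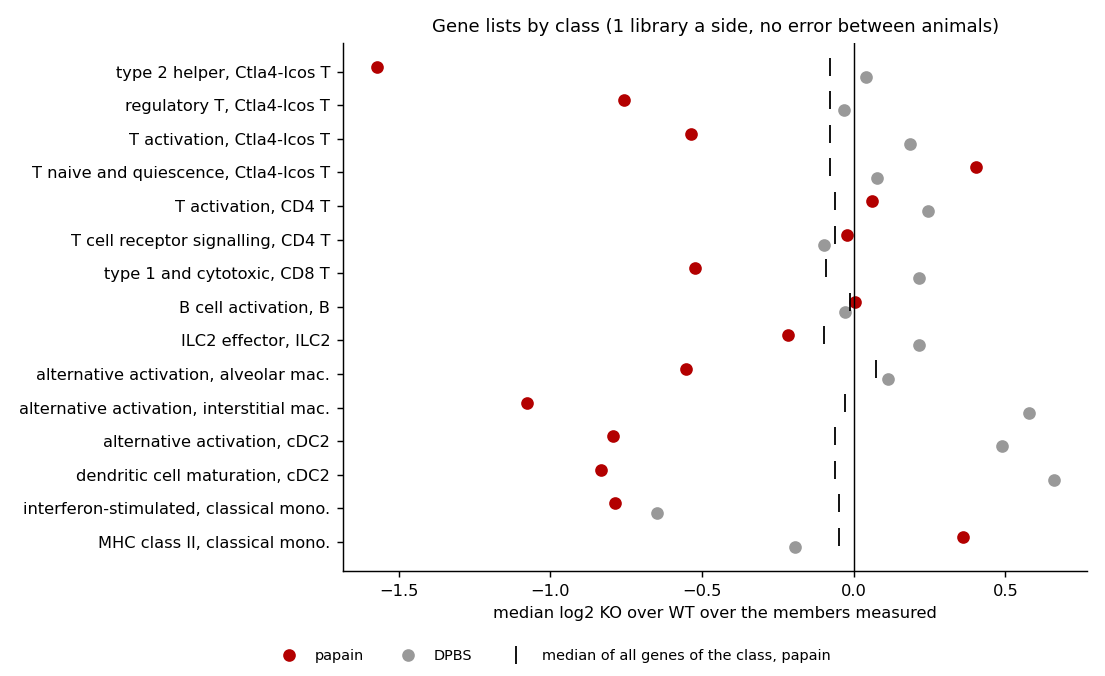
Median log2 ratio, KO over WT, over the measured members of each gene list in the class named beside it, after papain (red) and DPBS (grey), with 1 library a side. The black tick is the median of all genes of the class after papain. The type 2 helper list in the Ctla4-Icos T cluster lies farthest to the left at -1.57, and the T cell receptor signalling list in CD4 T-like cells lies at -0.02.

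The CD4 T-like class outside that cluster had several gene lists near 0 and others below it. The T cell receptor signalling list had a median log2 ratio of -0.02, glycolysis 0.01, the tricarboxylic acid cycle 0.04 and ESCRT genes, which act in endosomal sorting, 0.03, beside -0.06 for all genes. The list of PI3K, AKT and mTOR genes, which sense growth signals, had -0.25, and the T activation list had 0.06. These medians depend on how cells were assigned. In cells gated on CD4 T marker transcripts, T activation had -0.55, glycolysis -0.14 and PI3K, AKT and mTOR -0.11. With CD4 T-like and Ctla4-Icos cells summed, T activation had -0.64 and glycolysis -0.18. The type 1 and cytotoxic list had -0.63, with 9 of 11 lower and 2 of 6 past 2-fold lower beside 0.375% of all genes, the type 17 helper list had -0.79 (5 of 6 lower, none of 3 past 2-fold), and the intraflagellar transport list, which holds Ift20, -0.40 (11 of 11 lower). Tsg101, an ESCRT subunit, had 37.3 and 37.2 CPM (-0.00, -0.29 to 0.28), and Cd28, the costimulatory receptor, 331 and 334 CPM (0.01, -0.08 to 0.11). Cd69, an early activation gene, had 211 and 227 CPM (0.10, -0.01 to 0.22). The exception in size was Slc15a2, a peptide transporter gene on chromosome 16 (36750177 to 36784962, minus strand), with 18 UMIs in 16 WT cells and 163 UMIs in 132 KO cells (3.41, 2.71 to 4.21). It was higher in KO at rest too (1.73), and B-like cells, which lack Cre, showed it as well, with 36 and 389 UMIs (3.70, 3.20 to 4.23).

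CD8 T-like cells were called cell by cell on Cd4, Cd8a and Cd8b1 transcripts within the CD4 and CD8 T clusters. Most cytotoxic genes measured were lower in KO in these cells. The type 1 and cytotoxic list had a median log2 ratio of -0.52, with 3 members higher, 16 lower and 5 of 15 past 2-fold lower, beside 0.467% of all genes and a DPBS median of 0.22. Gzmm, a granzyme, had 39.5 and 14.4 CPM (-1.45, -1.82 to -1.09), Gzmb 43.2 and 16.2 CPM (-1.42, -1.77 to -1.07), and Tbx21, the factor T-bet, 15.1 and 5.61 CPM (-1.43, -2.04 to -0.84). Ifng had 50.8 and 25.3 CPM (-1.004, -1.30 to -0.72), and the chemokine gene Ccl4 60.1 and 28.1 CPM (-1.10, -1.37 to -0.83). Il2rb, the shared IL-2 and IL-15 receptor chain, had 251 and 141 CPM (-0.84, -0.96 to -0.71). Clusters were held in different proportions on the 2 sides. Of the CD8 T clusters, 2 were led by such genes as Gzmm, Ccl5, Il2rb and Gzmb. They held 194 and 27 Papain WT cells and 142 and 18 Papain KO cells. These are counts of whole clusters, while the class, called cell by cell, held 661 and 741 cells. The part of this mix in the ratios of the class was not tested. For Gzmm, Tbx21 and Il2rb, Papain WT was the highest of the 4 libraries. Ccl5, a chemokine gene of memory cells, was found after thinning in 24.4% of WT and 17.3% of KO cells (unthinned 31.9% and 23.8%), beside 1.88% and 2.07% of B-like cells, at median depths of 7785 and 8081 UMIs in CD8 T-like cells.

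Lymphocytes without Cre also differed. In B-like cells the calcium-binding protein gene S100a6 had 1076 CPM in WT and 428 CPM in KO after papain (log2 ratio -1.33, -1.38 to -1.28), against 231 and 166 CPM at rest. Zbtb32, a repressor made on B cell activation, had 36.0 and 15.4 CPM (-1.22, -1.49 to -0.95), Socs1, a feedback inhibitor of cytokine signalling, 45.7 and 20.3 CPM (-1.17, -1.41 to -0.94), and Lmo7 23.7 and 5.21 CPM (-2.18, -2.64 to -1.76). Papain WT was the highest library for these 4 genes. At rest Zbtb32 was also lower in KO, with 11.9 and 4.23 CPM (-1.49, -2.13 to -0.90). Socs1 and Lmo7 had resting ratios of -0.05 and -0.36, with intervals that held 0. Zbtb32 and Lmo7 are among the leading genes of 1 B-like cluster that held 250 of 2120 WT cells and 153 of 1753 KO cells, and the part of this mix was not tested. Activation and subset genes as lists were near 0, with medians of 0.00 and -0.14, and Cd69 had 260.2 and 265 CPM (0.03, -0.05 to 0.10). In NK-like cells, of which there were 58 and 91, the cytotoxic genes Gzma, Gzmb and Prf1 had ratios of 0.09, 0.22 and -0.13. Ifng had 174 and 159 UMIs, or 556 and 284 CPM (-0.97, -1.29 to -0.65). It was lower in KO at rest too, with 334 and 180 CPM (-0.89, -1.27 to -0.51). Ly6c2, a surface protein gene of maturing NK cells, had 543 and 237 CPM (-1.20, -1.53 to -0.86). The chaperone genes Hsph1 and Dnajb1 had ratios of -1.22 and -0.98. At rest Ly6c2, Hsph1 and Dnajb1 had ratios of 0.43, -0.09 and 0.10.

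In ILC2-like cells type 2 cytokine message was found in both papain libraries, with Il13 lower in KO. Il13 had 259 UMIs in 20 of 90 WT cells and 101 UMIs in 14 of 78 KO cells, or 401 and 225 CPM (log2 ratio -0.83, -1.18 to -0.50), beside 21.9 and 98.0 CPM at rest. For Il13 both papain libraries lay above both DPBS libraries. Over 5 alternative settings the Il13 ratio after papain ran from -0.93 to -0.22, the latter outside the interval above. Il5 had 80 and 39 UMIs, or 124 and 86.9 CPM (-0.51, -1.10 to 0.06), beside 81.2 CPM in DPBS WT and 179 CPM in DPBS KO, where 40 of the 53 UMIs came from 1 cell, and Il4 had 25 and 13 (-0.42, -1.51 to 0.60). Areg, Csf2 and Gata3 had ratios of -0.45, -0.14 and -0.22, and the ILC2 effector list a median of -0.22, close to the -0.10 of all genes. Calca, which encodes the neuropeptide CGRP, was higher in KO, with 234 and 807 CPM (1.79, 1.51 to 2.07). Lmo4, a transcriptional cofactor, and Hs3st1, a heparan sulfate enzyme, were also higher, with ratios of 1.499 and 1.38. Areg, Gata3, Calca and Hs3st1 are among the 6 markers that name this class. Those markers were each found in 22.2% to 91.1% of Papain WT and 46.2% to 88.5% of Papain KO cells. The leading genes of the cluster also included Cma1 and Tpsb2, which encode proteases of mast cells. The part of cell content in the ratios of the class was not tested. Other single genes were lower in KO. Plac8 had 387 and 55.7 CPM (-2.80, -3.45 to -2.20), Lgals1, the lectin galectin-1, 1119 and 305 CPM (-1.87, -2.15 to -1.61), and Crip1 1446 and 463 CPM (-1.64, -1.87 to -1.42). For Plac8, Lgals1 and Crip1 Papain WT was the highest library and Papain KO lay near or below the DPBS libraries.

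Alveolar macrophage-like cells, which carry no Cre, differed between WT and KO in several genes of alternative activation. The class was not alike in content on the 2 sides. After papain its 6 interstitial macrophage markers summed to 392 CPM on the WT side, against 118 CPM on the KO side. At rest these sums were 60.2 CPM (WT) and 50.4 CPM (KO). The part of such interstitial content in the ratios below was not tested. Chil3, a secreted chitinase-like protein, stood at 33926 CPM in Papain WT against 13733 CPM in Papain KO (log2 ratio -1.30, -1.31 to -1.30), against 11986 and 13371 in DPBS WT and KO. Arg1, which encodes arginase 1, had 983 UMIs in 106 of 922 WT cells and 10 UMIs in 9 of 541 KO cells, or 60.4 and 0.914 CPM (-6.05, -7.11 to -5.16). For Ccl17, a chemokine gene that draws type 2 helper cells, 2371 UMIs in 135 WT cells stood against 31 UMIs in 26 KO cells, 146 and 2.83 CPM (-5.68, -6.25 to -5.18). Ccl24, which encodes an eosinophil chemokine, had 193 and 15 UMIs (-3.11, -3.98 to -2.36), with 100 of the WT UMIs in 1 cell. Retnla, a secreted resistin-like protein, had 66 and 7 UMIs (-2.66, -4.03 to -1.54). In Papain KO the levels of Chil3, Arg1, Ccl17 and Retnla lay within or near the range of the DPBS libraries, and Ccl24 had 1 UMI over both DPBS libraries.

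The difference did not extend to every gene of the state. Mrc1, the mannose receptor CD206, had 812 and 834 CPM (0.04, 0.00 to 0.08), and Ear2, an eosinophil-type ribonuclease, 1854 and 2008 CPM (0.12, 0.09 to 0.14). Over the alternative activation list, 4 of 14 genes were past 2-fold lower beside 1.02% of all genes, and the median ratio was -0.55 (all genes 0.07, DPBS 0.11). Genes of alveolar macrophage identity had a median of 0.13. When the libraries were clustered without alignment, so that more papain cells fell into the interstitial class, the ratios of Chil3, Arg1 and Ccl17 in the alveolar class were -0.71, -2.12 and -2.78, and that of Retnla was -1.12. In gated cells Retnla had -0.55. Chil3 message free in the suspension differed alike. In CD4 T-like cells, which do not make it, 616 and 186 Chil3 UMIs were counted (-1.49), and in B-like cells 1261 and 444 (-1.24).

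Alternative activation genes are classical targets of STAT6, the factor that IL-4 and IL-13 activate. The promoters of Chil3, Ccl17 and Retnla are shown because they hold a match to the palindrome of STAT factors in either of 2 spacings. The 250 bases before the RefSeq start (GRCm38.p6) were searched for the palindromes TTCNNNGAA and TTCNNNNGAA, whose letters read the same on both strands and which do not overlap each other in the windows shown, and matches stand in capitals. Either motif was found in 12.4% of the 32851 mouse promoters of that length, 7.02% for the first and 5.85% for the second, and in 4 of the 14 promoters found for the 18 genes of the alternative activation list, and in 2 of the 21 promoters of the type 2 helper list (9.52%). The windows lie at chr3:106167565-106167814 on the minus strand for Chil3, at chr8:94810203-94810452 on the plus strand for Ccl17, and at chr16:48842359-48842608 on the plus strand for Retnla. The first capital stands 172 bases before the start in Chil3, 154 and 99 in Ccl17 and 145 in Retnla. Chil3 holds only the first motif, Retnla only the second, and Ccl17 both. A match is a description of the letters and no measure of binding.
Chil3: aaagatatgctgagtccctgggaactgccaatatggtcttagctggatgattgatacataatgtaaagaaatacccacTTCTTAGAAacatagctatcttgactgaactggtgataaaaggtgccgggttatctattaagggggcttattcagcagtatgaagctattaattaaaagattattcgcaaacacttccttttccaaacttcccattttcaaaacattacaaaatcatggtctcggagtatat
Ccl17: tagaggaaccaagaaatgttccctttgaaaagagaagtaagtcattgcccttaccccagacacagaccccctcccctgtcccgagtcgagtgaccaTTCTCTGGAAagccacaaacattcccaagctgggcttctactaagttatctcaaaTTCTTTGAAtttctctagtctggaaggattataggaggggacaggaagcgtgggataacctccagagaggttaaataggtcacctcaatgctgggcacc
Retnla: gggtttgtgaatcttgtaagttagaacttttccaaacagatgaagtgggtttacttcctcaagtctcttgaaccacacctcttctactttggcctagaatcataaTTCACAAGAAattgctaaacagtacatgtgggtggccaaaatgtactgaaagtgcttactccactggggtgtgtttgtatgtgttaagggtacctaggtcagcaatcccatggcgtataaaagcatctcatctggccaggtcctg

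Interstitial macrophage-like cells showed the same genes lower in KO. Chil3 had 25089.7 CPM in WT and 1721 CPM in KO (log2 ratio -3.87, -3.93 to -3.81), Ccl24 1062 and 74.3 CPM (-3.84, -4.14 to -3.55), Arg1 249.6 and 21.1 CPM (-3.56, -4.15 to -3.03) and Ccl17 1064 and 275 CPM (-1.95, -2.11 to -1.80). Retnla had 2841 and 2225 CPM (-0.35, -0.41 to -0.29), a direction that turned without alignment (0.52). Of the 2364 Chil3 UMIs in KO, 1948 came from 1 cell. Of 17 listed genes with 100 UMIs, 9 were past 2-fold lower beside 3.84% of all genes, and this class was chosen for the list after its values had been seen. Ifitm3 and Ifitm6, genes of the interferon-induced membrane proteins, were higher, with ratios of 2.07 and 2.31.

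This class was not alike in depth or content on the 2 sides. Its cells had a median of 7622 UMIs in WT and 16749 UMIs in KO, the 7 alveolar macrophage markers summed to 873 and 273 CPM, and the 6 interstitial markers to 5220 and 8618 CPM. With both macrophage classes summed, 1209 WT and 622 KO cells, Chil3 had 32566 and 12394 CPM (-1.39), Arg1 89.5 and 3.17 CPM (-4.82), Ccl24 173 and 9.497 CPM (-4.19) and Ccl17 287 and 33.2 CPM (-3.11). In interstitial cells with no UMI of the alveolar markers, 105 in WT and 50 in KO, Chil3 had 3427 and 76.1 CPM (-5.49), Arg1 -2.64, Ccl24 -2.87 and Ccl17 -2.93 on the log2 scale. These sums were chosen after the data had been seen, and the ratios were below 0 in each of them.

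**Figure D5:**
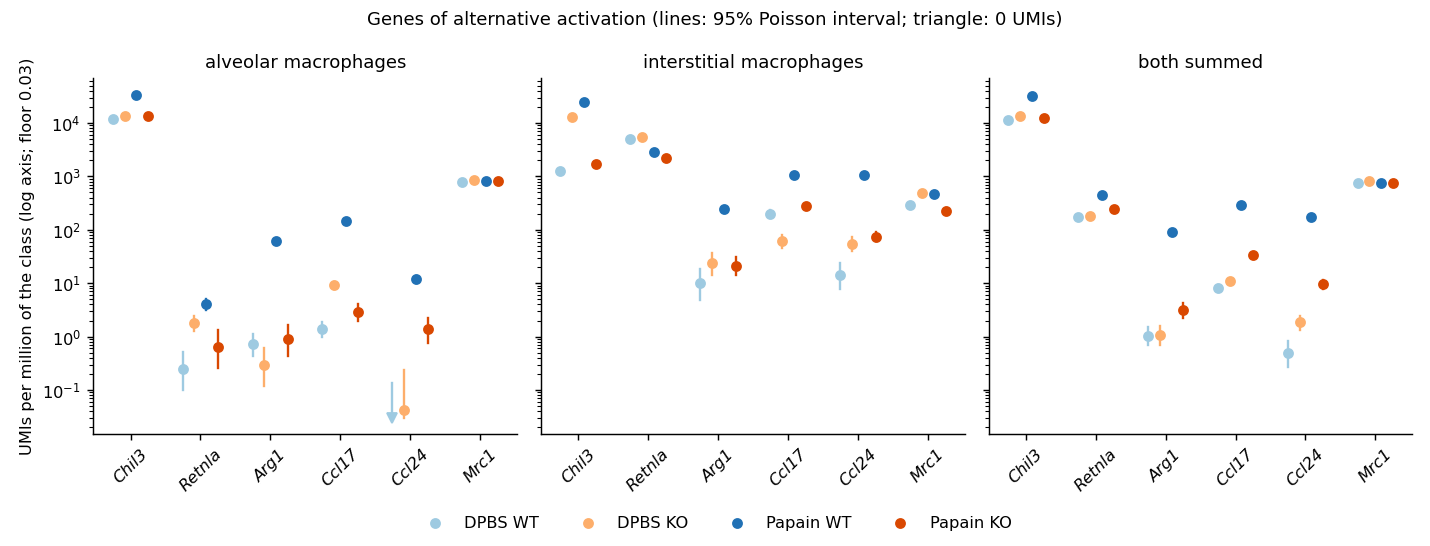
Levels of 6 genes of alternative activation in CPM on a log axis, in alveolar macrophage-like cells, interstitial macrophage-like cells and both summed, for the 4 libraries with 95% Poisson intervals. Papain WT (dark blue) lies above the other libraries for Chil3, Arg1, Ccl17 and Ccl24 in each panel, while Mrc1 in alveolar macrophage-like cells lies between 782 and 842 CPM in all 4.

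Inflammatory genes of alveolar macrophage-like cells were mixed. Il6 had 94.2 and 48.1 CPM (log2 ratio -0.97, -1.11 to -0.82) and Il1b 609 and 371 CPM (-0.71, -0.77 to -0.66). Inhba, an activin subunit, had 40.5 and 16.4 CPM (-1.30, -1.55 to -1.06). Tnf had 159 and 164 CPM (0.05, -0.04 to 0.14) and Cxcl2 1294 and 1291 CPM (-0.00, -0.03 to 0.03). With both macrophage classes summed, Il6 had a ratio of -0.74, Il1b -0.32 and Tnf 0.26. At rest the summed ratios of Il6, Il1b and Tnf were -0.38, -0.78 and -0.29. Genes of antigen presentation by MHC class II had a median of 0.45, with H2-Aa at 163 and 267 CPM. That direction was turned with both macrophage classes summed (-0.08) and in cells gated on marker transcripts (-0.68). Fbp1, a gluconeogenic enzyme gene on chromosome 13 (62864753 to 62888282, minus strand), had 1063 UMIs in 71 Papain WT cells and 1 UMI in Papain KO (-9.48, -14.8 to -7.00). In DPBS it was the KO library that held the UMIs, 163 against 1 in WT. The size of the papain ratio depended on how cells were assigned, at -5.93 without alignment and -4.00 in gated cells, and with both macrophage classes summed Fbp1 had 1613 and 53 UMIs (-4.28). Cd93, a surface receptor, was lower in Papain KO with a ratio of -1.61, and Hbegf, a growth factor, had -2.34 but 0.02 without alignment of the libraries. Epcam, an adhesion molecule, had 19.5 and 56.3 CPM (1.53, 1.33 to 1.73), where both DPBS libraries stood at 50.4 and 50.3 CPM.

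Classical monocyte-like cells of KO had lower levels of most interferon-stimulated genes and higher levels of 9 of 10 MHC class II genes. Among single genes, Prtn3, a granule protease of precursors, had 368 UMIs in 157 WT cells and 23 UMIs in 19 KO cells, or 65.8 and 6.48 CPM (log2 ratio -3.34, -4.02 to -2.74), beside 6.75 and 7.68 CPM at rest. Vcan, a matrix proteoglycan, had 102 and 32.1 CPM (-1.67, -1.97 to -1.37), and Mmp8, a collagenase, 76.4 and 22.8 CPM (-1.74, -2.10 to -1.40). Papain WT was the highest library for these 3 genes. Vcan is among the 5 markers that name this class. Those markers were each found in 45.3% to 84.5% of Papain WT and 18.6% to 72.3% of Papain KO cells. The part of cell content in the ratios of the class was not tested. The interferon-stimulated list had a median of -0.79, with 6 of 20 genes past 2-fold lower beside 1.2% of all genes, and -0.65 at rest. Ifit1 had 25.2 and 3.101 CPM (-3.02, -4.06 to -2.14), and Irf7, a regulator of the same response, 248.9 and 239.6 CPM (-0.06, -0.18 to 0.07). Cd74, the MHC class II chaperone, had 5380 and 9801 CPM (0.87, 0.84 to 0.89) and H2-Ab1 1311 and 2420 CPM (0.88, 0.84 to 0.93), where the DPBS libraries held 8738 and 8865 CPM of Cd74. Nonclassical monocyte-like cells differed in few genes, among them Fkbp5, a target of glucocorticoids, with 34.5 and 84.0 CPM (1.28, 0.92 to 1.65). Fkbp5 was higher in KO at rest too, with 14.7 and 40.3 CPM (1.45, 0.85 to 2.08).

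Neutrophil-like cells and cDC2-like cells gave the remaining differences. In neutrophil-like cells Wfdc17, a protease inhibitor gene, had 1691 and 629 CPM (log2 ratio -1.43, -1.56 to -1.29) and Ifitm1 4742 and 2531 CPM (-0.91, -0.98 to -0.83), while the chemokine genes Ccl4 and Ccl3 were higher in KO, at 184 and 512 CPM (1.48) and at 191 and 435 CPM (1.19). Il1b and Cxcl2, abundant in these cells, had ratios of 0.07 and -0.03. Ribosomal protein genes had a median of -0.68 in these cells (19 of 20 lower, 4 of them past 2-fold beside 1.24% of all genes) and genes of the mitochondrial genome -0.61 (10 of 10 lower), among them mt-Co1 at -0.83. With doublets kept these medians were 0.21 and -0.30. In cDC2-like cells, 99 in WT and 44 in KO, Il4i1, an enzyme induced by IL-4, had 193 and 19.7 CPM (-3.29, -4.06 to -2.61), and Aqp3, a water channel, 152 and 12.0 CPM (-3.66, -4.68 to -2.79). Il4i1 is also among the markers that name the mature DC-like class, and the part of such cells in its ratio was not tested. Ccl17 had 2142 and 773 CPM (-1.47, -1.59 to -1.35), where DPBS WT and KO had 399 and 1062 CPM. Ccl24 had 409 UMIs in 12 WT cells and none in KO, at least 75.3-fold lower, with 150 of the UMIs in 1 cell. The dendritic cell maturation list had a median of -0.83 (5 of 12 past 2-fold lower) and the alternative activation list -0.79 (5 of 10), beside 2.87% of all genes of the class and DPBS medians of 0.66 and 0.49. In the same cells the list of alveolar macrophage identity had a median of -0.96 (4 of 5 past 2-fold lower, DPBS 0.35), and the myeloid inflammatory list 1.15 (7 of 12 past 2-fold higher and 2 lower, DPBS 0.43). The part of either in the ratios above was not tested.

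A few genes were higher in KO in several classes, with or without Cre. Of the genes with at least 100 UMIs in 5 or more of the 12 compared classes, 3 lay past 1.5-fold on the same side in every class where they reached that count. These were Gm17056, an antisense transcript on chromosome 12, in 7 classes (median log2 ratio 1.12), AY036118, a long noncoding RNA on chromosome 17, in 5 (1.25), and Gm10036, a predicted gene, in 5 (1.98). Their median ratios at rest over the same classes were 0.13, 0.36 and 0.76. Whether the counting used strand is not given in the sources used here, so reads of an antisense gene and of its partner may not be told apart.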

How the data were processed

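Lung cells were profiled with the 10x 3′ v3 assay in 4 libraries, 1 for each genotype and treatment, so no test between groups was possible and no p-value is given. The authors deposited raw UMI counts per gene and barcode, made with Cell Ranger per the submitters' notes, on mm10. The matrix headers name software version 3.1.0. Barcodes with more than 200 genes and under 15% mitochondrial counts were kept, thresholds that the study states for another of its experiments. Scrublet, in scanpy 1.11.5, scored doublets, and the top 0.8% per 1000 barcodes were removed, because its own threshold marked only 0.0175% of the Papain KO barcodes. That removed 511 Papain WT and 260 Papain KO barcodes.

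Cells of the 4 libraries were aligned and clustered in Seurat 5.3.0 (R 4.3.3; canonical correlation, 2000 variable genes, 30 dimensions, Louvain resolution 0.8), which gave 20 clusters. Clusters with Cd3e in at least 35% of cells were clustered again into 14. Names came from marker genes, by a scoring rule set after the clusters had been seen. Within CD4 and CD8 T clusters, cells were then called by their Cd4, Cd8a and Cd8b1 UMIs, and cells without a clear call by the majority. UMIs were then summed per class and library. Log2 ratios have exact conditional binomial intervals, levels exact Poisson and shares Clopper-Pearson intervals, all at 95% and for counting error only. A count of 0 was set to a floor of 3 UMIs over the group. List medians used members with at least 20 UMIs over both libraries.

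Genes are named by a rule. In each class these were the 8 highest and 8 lowest genes by the interval bound nearest 0, among genes with at least 100 UMIs, no cell with over 20% of the UMIs of the higher library, and a level at least 20% of that of the class where the gene was highest. Genes past 1.5-fold the same way in every one of at least 5 classes and members of the 34 gene lists were also named. The members and lists were chosen with earlier results of these data known. The calculations were tested on simulated data. The alternatives tried were no alignment of the libraries, classes gated on marker transcripts, doublets kept, a stricter filter on cells, means over cells, ratios centred on the median gene and at least 50 UMIs.

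Not every gene that the rule names is printed, and 1 gene was left out and is not reported here.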

Additional observations from a re-analysis of the deposited data

Results flagged for a closer look

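For 6 of 14 class shares and 34 of 191 named genes, the KO library lay above WT after one treatment and below it after the other, with both counting intervals apart from 0. Each treatment had 1 library a side, so the difference between the treatments was not tested. The values below are log2 ratios of KO over WT, first after papain and then after DPBS. For the shares of cells they were 0.62 and -0.22 for CD8 T-like cells, 0.19 and -0.13 for B-like cells, 1.11 and -0.78 for NK-like cells, -0.31 and 0.21 for alveolar macrophage-like cells, -1.37 and 0.97 for interstitial macrophage-like cells and -0.23 and 0.42 for nonclassical monocyte-like cells.

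Among the named genes the opposite directions were these. In the Ctla4-Icos T cluster the log2 ratios were for Actn1 1.33 and -0.60 and Hilpda -1.96 and 0.93. In CD8 T-like cells the log2 ratios were for Il2rb -0.84 and 0.29. In NK-like cells the log2 ratios were for H2afz 0.62 and -0.21, Eif5a 0.61 and -0.20, Kcnq1ot1 0.90 and -1.12, Klra4 0.61 and -1.04 and Ly6c2 -1.20 and 0.43. In ILC2-like cells the log2 ratios were for Zfp36 1.08 and -0.89, Lgals1 -1.87 and 0.61 and S100a6 -1.17 and 0.29. In alveolar macrophage-like cells the log2 ratios were for Fbp1 -9.48 and 7.59, Cd93 -1.61 and 0.27, Chil3 -1.30 and 0.16 and Fstl1 -1.54 and 1.05. In interstitial macrophage-like cells the log2 ratios were for Ifitm3 2.07 and -0.61, Chil3 -3.87 and 3.31, Ccl24 -3.84 and 1.95, Arg1 -3.56 and 1.22, Cdh1 -3.59 and 3.71 and Rnase2a -2.59 and 4.597. In classical monocyte-like cells the log2 ratios were for Exosc2 1.37 and -0.49, Eno3 0.90 and -0.40 and Vcan -1.67 and 0.50. In nonclassical monocyte-like cells the log2 ratios were for Gm42418 0.61 and -0.08, Mgst1 0.61 and -0.27 and Nrip1 -0.79 and 0.80. In neutrophil-like cells the log2 ratios were for Ccl4 1.48 and -1.36, Ccl3 1.19 and -0.48, Gm12840 1.296 and -2.28, Wfdc17 -1.43 and 1.04 and Ifitm1 -0.91 and 0.63. In cDC2-like cells the log2 ratios were for Mndal 1.13 and -1.37 and Ccl17 -1.47 and 1.41. Without alignment of the libraries Fstl1 in alveolar macrophage-like cells had a ratio of 0.02 after papain.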

How the results depend on the processing

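One library a side sets the main limit, since the spread between mice is unknown, and the depth limits small classes such as NK-like and ILC2-like cells. No paired analysis was possible because each group held 1 library. Within the interval of the main value lay 64 of 65 alternative values of Ift20 and 43 of 47 of class shares. The same held for 136 of 155 list medians, with the order-statistic interval over the members. Where the main interval held 0, a value within it could have either direction. Of 1202 alternative values of named genes 150 moved outside the main interval and 8 turned direction. A turn was counted only where the main interval lay apart from 0. Of 89 counts of genes past 2-fold, 24 moved by over 1.5 times. Exceptions follow as log2 ratios of KO over WT, and for each of them the cause was not tested. Without alignment of the libraries, Ift20 in the Ctla4-Icos T cluster was -1.78, the share of alveolar macrophage-like cells 0.067 and that of interstitial macrophage-like cells -1.76 (-0.94 with doublets kept). There the list medians were -0.40 for regulatory T and 0.17 for naive genes in the Ctla4-Icos T cluster and 0.025 for interferon-stimulated genes in alveolar macrophage-like cells. Directions of single genes also turned there, with Foxp3 at 1.13 in the Ctla4-Icos T cluster, Areg at 0.11 in ILC2-like cells, Fstl1 at 0.017 and Hbegf at 0.021 in alveolar macrophage-like cells, and Retnla at 0.52 and Spp1 at 1.26 in interstitial macrophage-like cells. Means over cells put Retnla there at 0.00073, and centring put Mrc1 in alveolar macrophage-like cells at -0.035. In cells gated on marker transcripts, the share of CD4 T-like cells was -0.30, and their medians were -0.55 for T activation, -0.11 for PI3K, AKT and mTOR and -0.14 for glycolysis (0.074 when centred). In gated alveolar macrophage-like cells MHC class II was at -0.68 (0.11 with doublets kept) and interferon-stimulated genes at -0.12. Summing CD4 T-like and Ctla4-Icos cells, chosen after seeing the data, gave -1.28 for regulatory T, 0.16 for naive, -0.64 for T activation and -0.18 for glycolysis genes, and summing both macrophage classes gave -0.082 for MHC class II. In neutrophil-like cells ribosomal genes were at -0.68, but at 0.21 with doublets kept and -0.24 as means over cells, and mitochondrial genes at -0.61, -0.30 and -0.49. Counts of genes past 2-fold depended on the settings. With at least 50 UMIs they were 68 in CD4 T-like, 279 in Ctla4-Icos, 77 in CD8 T-like, 106 in B-like, 45 in NK-like, 125 in ILC2-like, 182 in alveolar macrophage-like, 366 in interstitial macrophage-like, 171 in classical and 40 in nonclassical monocyte-like, 84 in neutrophil-like and 208 in cDC2-like cells. Gating gave 191 in CD4 T-like, 80 in B-like and 22 in NK-like cells. Without alignment there were 4 in NK-like, 25 in ILC2-like, 36 in alveolar and 321 in interstitial macrophage-like cells. Keeping doublets gave 5 in NK-like, 66 in ILC2-like and 29 in nonclassical monocyte-like cells, and means over cells 27 in ILC2-like and 503 in interstitial macrophage-like cells.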
